A study of Mus musculus with 6 samples.

Results

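The gene group described here joins proteins that tie the cell membrane to the actin cytoskeleton, led by Ahnak, with genes of brain vessels, their basement membrane, the meninges and the choroid plexus. It was put together by symbol, and holds 41 listed genes, of which 40 had a row in the count table of 24594 entries and 21 passed the filter on low counts, among 13115 genes tested. The listed gene with no row, Ahnak2, was not analysed here. Of the members, Ahnak, Afap1l1, Arhgef15, Phldb2, Lama5 and Ppl were chosen by their measured values, having differed between the genotypes in these same libraries. Their values are therefore a description, and the question put to the data was whether the genes of endothelial, mural and meningeal cells differed along with them.

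The samples were nuclear RNA-seq libraries of granule cells, the most numerous neurons of the cerebellum. There were 3 libraries with both copies of Ezh1 conditionally deleted (genotype Ezh1(cKO/cKO);Neurod1-Cre, here Ezh1cKO) and 3 with intact Ezh1 (Ezh1(wt/wt);Neurod1-Cre, here WT). All came from cerebella of mice aged 7 months, and both genotypes carry Neurod1-Cre, in which a recombinase carries the name of a granule neuron transcription factor. Nuclei were fixed and sorted for NeuN, a neuronal nuclear antigen that cells of vessels, meninges and choroid plexus lack. Ezh1 encodes one of the alternative enzymes of Polycomb repressive complex PRC2, which marks repressed genes by methylating histone H3. The labels say neither which exons of Ezh1 are removed nor whether each library came from a separate animal, so the p-values reflect the spread among these samples alone, part of which may be technical.

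The 3 Ezh1cKO libraries held 6340236 to 6827022 counts and the 3 WT libraries 6682805 to 8284768. At this depth 3 counts, the limit that a count of 0 allows, were worth 0.364 to 0.463 CPM (counts scaled to 1e+06 counts of a library), for counting error only. Ezh1 itself had 52.5, 50.9 and 55.6 CPM in the Ezh1cKO libraries, against 71.0, 75.6 and 83.3 CPM in the WT libraries (log2 fold change -0.53). Each Ezh1cKO library was thus below each WT library, as the labels have it. The ratio of the means was 0.692, and these whole-gene counts do not by themselves show the deletion in each library. Replicate 1 of each genotype had Xist at 831 CPM (Ezh1cKO) and 812 CPM (WT), and the other libraries had at most 4.46 CPM. The Y-linked genes Uty, Ddx3y, Kdm5d and Eif2s3y summed to 2.45 CPM (Ezh1cKO) and 1.51 CPM (WT) in replicate 1, and to 123 to 148 CPM in the other libraries. By these genes replicate 1 of each genotype was female and the other libraries male, so each genotype held both sexes. Over all 13115 genes the test, edgeR's quasi-likelihood test with Benjamini-Hochberg adjustment, called 34 genes lower (0.259%) and 43 genes higher (0.328%) in Ezh1cKO at an adjusted p below 0.05, and the median log2 fold change was -0.01.

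Beneath the plasma membrane lies the cell cortex, a mesh of actin filaments held to the membrane by scaffold and linker proteins. Endothelial cells line the brain's vessels and sit with pericytes and smooth muscle cells, the mural cells, on a basement membrane built of laminin and collagen IV. The meninges are sheets of fibroblasts and an arachnoid barrier layer around the brain, and the choroid plexus is the epithelium that secretes cerebrospinal fluid. Several of the cortex genes are also expressed by neurons. In bulk libraries, fewer cells of a type and less RNA per cell cannot be told apart.

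The promoters of Ahnak, Phldb2 and Lama5 are shown because these genes were named together for their change, although they went in different directions. Each window runs 5′ to 3′ on the gene's strand, from 250 bases before to 50 after 1 start site of the gene, and comes from RefSeq on GRCm38.p6. For Ahnak and Lama5 that site is at or within 45 bases of the outermost annotated start of the gene. For Phldb2 it is an internal start site, 109220 bases downstream of the outermost one, whose region is not shown. Ahnak lies at chr19:8989034-8989333 on the plus strand, Phldb2 at chr16:45844329-45844628 on the minus strand and Lama5 at chr2:180225810-180226109 on the minus strand. Capitals mark matches to GGAATG, a core of TEAD sites, and GGGCGG, a core of SP and KLF sites, on either strand.
Ahnak: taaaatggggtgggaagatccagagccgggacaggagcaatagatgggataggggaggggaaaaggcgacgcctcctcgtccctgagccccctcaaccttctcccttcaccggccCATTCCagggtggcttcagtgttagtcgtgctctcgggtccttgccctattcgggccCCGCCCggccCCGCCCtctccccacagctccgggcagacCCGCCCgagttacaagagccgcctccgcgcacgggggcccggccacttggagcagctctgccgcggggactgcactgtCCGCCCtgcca
Phldb2: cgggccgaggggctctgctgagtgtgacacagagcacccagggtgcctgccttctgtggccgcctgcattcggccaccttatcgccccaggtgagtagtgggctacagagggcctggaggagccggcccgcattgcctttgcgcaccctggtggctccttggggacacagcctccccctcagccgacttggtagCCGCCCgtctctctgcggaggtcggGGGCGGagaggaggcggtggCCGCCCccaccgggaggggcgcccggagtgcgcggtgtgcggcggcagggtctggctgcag
Lama5: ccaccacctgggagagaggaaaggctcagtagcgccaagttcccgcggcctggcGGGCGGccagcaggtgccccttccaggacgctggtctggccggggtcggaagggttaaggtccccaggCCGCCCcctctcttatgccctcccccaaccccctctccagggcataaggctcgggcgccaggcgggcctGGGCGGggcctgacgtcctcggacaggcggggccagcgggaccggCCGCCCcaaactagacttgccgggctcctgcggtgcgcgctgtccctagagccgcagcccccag

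The Ahnak window held 4 matches to GGGCGG and 1 to GGAATG. The Phldb2 window held 3 matches to GGGCGG, and the Lama5 window held 4. None of these windows held CCGGAAG, a core of ETS sites, or AGATAA, a core of GATA sites, both of which are bound by factors of endothelial cells. No window of Afap1l1 or Arhgef15 is shown, so these matches do not cover those genes. Of all 32851 windows of the same length, 35.7% held GGGCGG, 14.7% GGAATG, 8.86% CCGGAAG and 11.2% AGATAA, with no overlap between matches in the windows shown. The share of G and C was 67.3% for Ahnak, 71.7% for Phldb2 and 72.7% for Lama5, against a median of 52.7% over all windows. They held 22, 23 and 24 CpG dinucleotides in that order of genes, against a median of 7.

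Among the cortex genes, Ahnak, Afap1l1, Arhgef15 and Phldb2 were lower in every Ezh1cKO library than in every WT library. Ahnak encodes a very large scaffold protein of the membrane cortex that binds annexin A2 with S100A10. It had 10.2, 13.4 and 13.9 CPM in Ezh1cKO libraries 1, 2 and 3, against 20.4, 26.0 and 25.7 CPM in WT libraries 1, 2 and 3. Its highest Ezh1cKO library lay well below its lowest WT library, which was WT replicate 1. The means were 12.5 ± 1.99 CPM in Ezh1cKO and 24.1 ± 3.17 CPM in WT (SD, n = 3 each), a log2 fold change of -0.95 (SE 0.17, 95% interval -1.29 to -0.60) that rested on 71 to 90 counts per Ezh1cKO library and 135 to 212 per WT library.

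Afap1l1, a member of the actin filament associated protein family, had 8.49, 4.79 and 10.5 CPM in the Ezh1cKO libraries, against 14.1, 19.8 and 18.6 CPM in the WT libraries. The groups did not overlap, although Ezh1cKO replicate 3 and WT replicate 1 came close to each other (log2 fold change -1.14, SE 0.23). Of its exon bases, 4.05% are shared with the antisense gene 1500015A07Rik, and whether counting used strand is not given in the sources used here.

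Arhgef15 encodes ephexin 5, an exchange factor for the GTPase RhoA that is known from vessel endothelium and from synapses, where it binds EphB2. Its level was 7.92, 12.3 and 9.39 CPM in the Ezh1cKO libraries, against 13.8, 19.5 and 21.1 CPM in the WT libraries. Here too WT replicate 1 was the lowest WT library, and it stood only a little above the highest Ezh1cKO library (log2 fold change -0.88, SE 0.20).

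Phldb2 encodes LL5-beta, which binds membrane phosphoinositides and anchors microtubule ends at the cortex through CLASP proteins. It had 6.19, 3.86 and 4.77 CPM in the Ezh1cKO libraries, against 9.67, 9.89 and 11.5 CPM in the WT libraries. The groups stood clearly apart, with means of 4.94 ± 1.17 CPM in Ezh1cKO and 10.4 ± 1.01 CPM in WT (SD, n = 3 each), a log2 fold change of -1.07 (SE 0.25).

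Lama5 was named among the falling genes when the group was formed, but the data go against this, since it was higher in Ezh1cKO. It encodes the laminin alpha 5 chain of the vessel basement membrane. It had 28.4, 28.4 and 19.4 CPM in the Ezh1cKO libraries, against 15.1, 13.9 and 14.2 CPM in the WT libraries. All Ezh1cKO libraries lay above all WT libraries, and Ezh1cKO replicate 3 was the lowest of them. The log2 fold change was 0.82 (SE 0.16), with means of 25.4 ± 5.19 CPM in Ezh1cKO and 14.4 ± 0.62 CPM in WT (SD, n = 3 each).

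Ppl, which encodes periplakin, a linker between membrane and intermediate filaments, was also higher. Its level was 21.9, 18.8 and 20.9 CPM in the Ezh1cKO libraries, against 12.5, 13.9 and 7.65 CPM in the WT libraries. The Ezh1cKO libraries were close together and the WT libraries less so, with WT replicate 3 far the lowest (log2 fold change 0.86, SE 0.19). These 6 genes account for the 4 members called lower and 2 called higher, which the choice of the members fixes, so no weight is put on that share against the 0.259% and 0.328% of all genes.

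**Figure D1:**
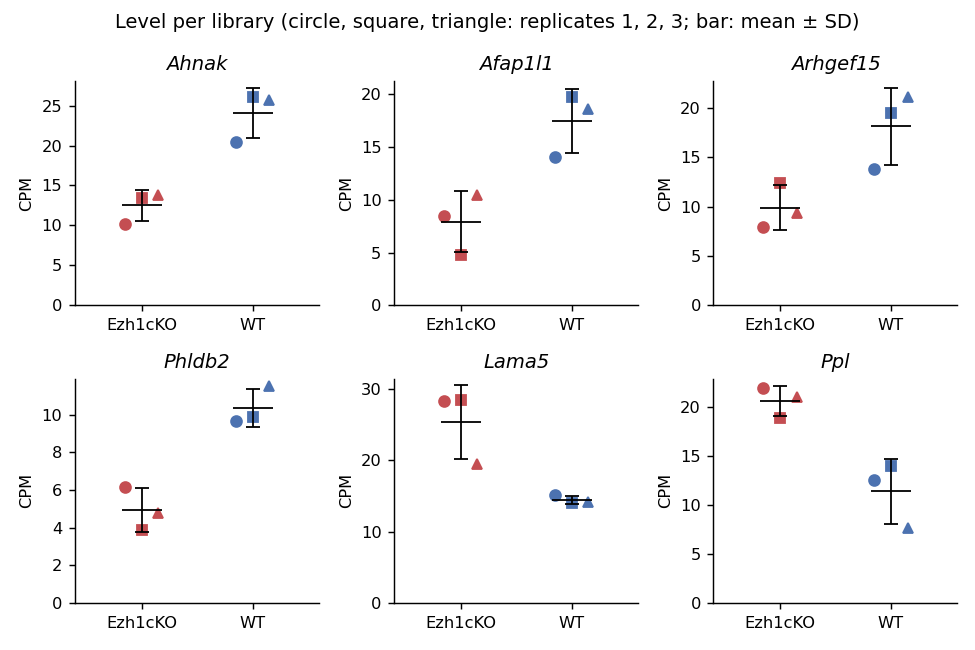
Level in CPM (vertical axes, from 0) of the 6 genes chosen for their difference, with 1 point per library (circle, square and triangle for replicates 1, 2 and 3) and black bars for the mean ± SD of 3 libraries. Ahnak, Afap1l1, Arhgef15 and Phldb2 are lower in Ezh1cKO than in WT, and Lama5 and Ppl are higher, with no overlap between genotypes.

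The relatives of these genes in the group were not called. Phldb1, which encodes the LL5-alpha paralog of Phldb2, had 308, 279 and 363 CPM in the Ezh1cKO libraries, against 345, 388 and 324 CPM in the WT libraries. The genotypes overlapped (log2 fold change -0.15, SE 0.09, 95% interval -0.34 to 0.03, adjusted p = 0.537). Envoplakin, the partner of periplakin encoded by Evpl, had 2.45, 2.78 and 3.39 CPM in the Ezh1cKO libraries, against 2.12, 2.23 and 4.49 CPM in the WT libraries. WT replicate 3 was the highest and the other WT libraries the lowest (log2 fold change -0.06, SE 0.40, adjusted p = 0.974), and the interval of -0.88 to 0.76 still allows a change near that of Ppl.

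Per kilobase of exon, the 4 lower genes stood at low levels beside Phldb1. In WT, Afap1l1 had 4.75 CPM per kilobase, Arhgef15 2.80, Phldb2 1.37 and Ahnak 1.21, while Phldb1 had 49.1. In Ezh1cKO, Afap1l1 had 2.15, Arhgef15 1.53, Phldb2 0.652 and Ahnak 0.627 CPM per kilobase, while Phldb1 had 44.1. Phldb1 thus stood near the median of 14 granule cell genes, which was 51.4 in Ezh1cKO and 45.9 in WT on the same scale. The 13 endothelial members had a median of 0.130 CPM per kilobase in Ezh1cKO and 0.0773 in WT, but they ranged widely, and Esam, at 1.46 in Ezh1cKO and 1.85 in WT, stood above Ahnak and Phldb2.

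A wider list of 34 genes for partners and relatives of these cortex proteins (CLASP, talin, ERM, spectrin, filamin and plakin genes among them) held no called gene among the 30 tested. The median log2 fold change was -0.02, against -0.01 over all genes. For 29 of the 30 the 95% interval lay within a 2-fold change, as it did for 81.0% of all genes. An unadjusted p below 0.05 was reached by 7 of them (23.3%, against 11.9% of all genes), and limma-voom called none, nor did DESeq2, which gave no adjusted p for 6 of the 30 because of their low level. Every Ezh1cKO library lay below every WT library for 5 of the 30 (16.7%, against 8.4% of all genes) and above for 2 (6.67%, against 7.91%). The gene with the smallest p was Rdx, which encodes radixin, a linker of membrane proteins to actin, at 53.7, 59.3 and 63.0 CPM in the Ezh1cKO libraries, against 63.6, 83.0 and 73.8 CPM in the WT libraries. Its groups came within a narrow gap of each other (log2 fold change -0.33, SE 0.11, adjusted p = 0.167). Next was Ppfia1, which encodes liprin-alpha 1, at a log2 fold change of -0.21 (adjusted p = 0.273).

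Arhgef15 has its own relatives, the ephexins, and partners at the synapse. Of 8 tested genes of that list none was called, 3 (37.5%, against 11.9% of all genes) had an unadjusted p below 0.05, and limma-voom called none. DESeq2 gave an adjusted p for only 2 of the 8. The 9 listed genes summed to 403, 387 and 401 CPM in the Ezh1cKO libraries, against 357, 331 and 363 CPM in the WT libraries. These sums did not overlap and were higher in Ezh1cKO. Every Ezh1cKO library lay above every WT library for 1 of the 8 (12.5%, against 7.91% of all genes) and below for none. The smallest p-values belonged to Arhgef26 (log2 fold change -0.48, adjusted p = 0.185) and to Ube3a, whose product is a ubiquitin ligase that targets ephexin 5 (log2 fold change 0.25, adjusted p = 0.222).

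Lama5 stood beside 4 other basement membrane members, and none of those was called. Col4a1 and Col4a2, which encode the chains of the main collagen IV of vessels, are neighbours that are transcribed in opposite directions from start sites close together. Their windows, also from RefSeq on GRCm38.p6, share 78 bases and are shown because both genes had positive log2 fold changes of like size. Col4a1 lies at chr8:11312777-11313076 on the minus strand and Col4a2 at chr8:11312555-11312854 on the plus strand, with matches to GGGCGG in capitals.
Col4a1: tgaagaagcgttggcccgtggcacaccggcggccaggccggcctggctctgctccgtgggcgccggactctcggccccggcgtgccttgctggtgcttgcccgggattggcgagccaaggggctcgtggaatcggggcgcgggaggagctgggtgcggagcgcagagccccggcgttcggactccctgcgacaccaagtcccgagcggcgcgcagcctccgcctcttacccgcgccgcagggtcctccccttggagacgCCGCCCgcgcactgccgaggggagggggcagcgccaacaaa
Col4a2: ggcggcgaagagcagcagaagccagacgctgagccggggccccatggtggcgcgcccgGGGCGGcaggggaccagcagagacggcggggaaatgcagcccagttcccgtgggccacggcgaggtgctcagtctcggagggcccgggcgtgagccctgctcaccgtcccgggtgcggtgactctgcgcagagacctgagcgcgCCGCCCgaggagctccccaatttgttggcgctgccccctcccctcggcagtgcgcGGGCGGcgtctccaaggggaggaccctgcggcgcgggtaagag

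The Col4a1 window held 1 match to GGGCGG and the Col4a2 window 3, with 74.0% and 73.7% G and C in that order and none of the other 3 motifs. The Col4a1 match and the last Col4a2 match are the same site, which lies in the bases that both windows share. Col4a2 had 22.5, 7.41 and 15.5 CPM in the Ezh1cKO libraries, against 8.92, 9.19 and 9.47 CPM in the WT libraries. The WT libraries were close together, and Ezh1cKO replicate 1 was far above them while replicate 2 was below (log2 fold change 0.72, SE 0.31, adjusted p = 0.393, unadjusted p = 0.0406).

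Col4a1 followed the same libraries, with 15.3, 6.17 and 8.0 CPM in Ezh1cKO, against 8.31, 4.60 and 6.19 CPM in WT. Ezh1cKO replicate 1 again stood apart, and the other values overlapped (log2 fold change 0.63, SE 0.31, adjusted p = 0.425). Without Ezh1cKO replicate 2 Col4a2 passed the threshold (log2 fold change 1.05, adjusted p = 0.00710), and it also did so with no filter on low counts (adjusted p = 0.0419). Without Ezh1cKO replicate 1 the log2 fold change of Col4a1 was 0.16 and that of Col4a2 0.32.

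Lamb2, the laminin beta 2 chain, had a log2 fold change of -0.20 (SE 0.27, adjusted p = 0.837), and Lama4, a laminin alpha chain of endothelium, had too few counts to test (14, 3 and 9 in the Ezh1cKO libraries, against 4, 9 and 13 in the WT libraries). Both overlapped between genotypes. Among 24 further laminin, collagen IV, nidogen and receptor genes, 21 were tested, and edgeR and limma-voom called none of them, while DESeq2 gave no adjusted p for 17 of the 21. None reached an unadjusted p below 0.05. Their median log2 fold change was -0.04. Smallest in p were Col4a4, at -0.92 (adjusted p = 0.521), and Agrn, which encodes agrin, at 0.12 (adjusted p = 0.634). The 5 basement membrane members summed to 72.8, 48.2 and 52.5 CPM in the Ezh1cKO libraries, against 38.1, 36.5 and 39.9 CPM in the WT libraries, a sum in which Lama5 takes the most.

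Several genes that mark endothelial cells had at most 7 counts in any library. Some genes of the wider endothelial list below stood far higher. Cldn5, the tight junction claudin of brain endothelium, had 1, 0 and 3 counts in the Ezh1cKO libraries, against 0, 2 and 0 in the WT libraries. Kdr, a VEGF receptor, had 3, 0 and 1 counts in Ezh1cKO, against 1, 2 and 3 in WT, and Cdh5, the cadherin of endothelial junctions, had 5, 3 and 3, against 3, 7 and 7. The genotypes overlapped for each of these. Sox17, an endothelial transcription factor, had 0, 0 and 4 counts in Ezh1cKO and none in the WT libraries, where 3 counts, the limit that a count of 0 allows, are worth 0.364 to 0.453 CPM.

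In all, 10 of the 13 endothelial members were below the filter, with at most 15 counts in a library. Together these 10 genes had 50, 26 and 33 counts in the Ezh1cKO libraries, against 20, 41 and 40 in the WT libraries. Ezh1cKO replicate 1 had the most and WT replicate 1 the fewest, and the genotypes overlapped. Among them Flt1, another VEGF receptor, had 12, 8 and 9 counts in Ezh1cKO, against 3, 8 and 9 in WT, and in CPM every Ezh1cKO library was above every WT library. Eng, the TGF-beta coreceptor endoglin, had 15, 9 and 7 counts in Ezh1cKO, against 6, 10 and 7 in WT. The receptor gene Tie1 and the secreted factor gene Egfl7 had 0 to 7 counts in Ezh1cKO, against 1 to 10 in WT. Vwf, which encodes von Willebrand factor, had 4, 0 and 1 counts in Ezh1cKO, against 4, 1 and 5 in WT, and the transcription factor gene Sox18 had 1, 2 and 0, against none in WT.

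**Figure D2:**
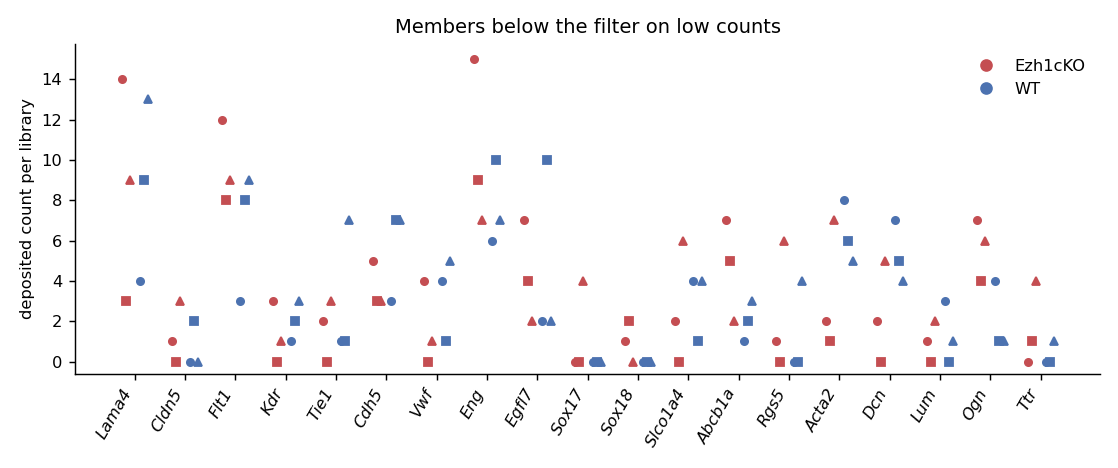
Deposited counts per library (vertical axis) of the 19 members below the filter on low counts, with red points for Ezh1cKO and blue points for WT (circle, square and triangle for replicates 1, 2 and 3). No library has more than 15 counts of any of these genes.

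The 3 endothelial members that could be tested were not called. Pecam1, an adhesion molecule of endothelial junctions, had 1.44, 2.16 and 0.770 CPM in the Ezh1cKO libraries, against 2.57, 1.11 and 2.31 CPM in the WT libraries. The values interleaved (log2 fold change -0.45, SE 0.51, adjusted p = 0.788). Tek, the angiopoietin receptor, had 2.01, 3.86 and 3.39 CPM in Ezh1cKO, against 2.57, 2.37 and 3.03 CPM in the WT libraries (log2 fold change 0.21, SE 0.39, adjusted p = 0.886). Esam, another adhesion molecule, had 3.02, 3.86 and 5.70 CPM in Ezh1cKO, against 5.44, 7.10 and 3.40 CPM in WT (-0.34, SE 0.33, adjusted p = 0.751). Both overlapped between genotypes. The 95% intervals of all 3 genes reach past a 2-fold change, so a difference of that size is not excluded for any of them.

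Summed over the 13 endothelial members, the level was 13.7, 13.9 and 14.9 CPM in the Ezh1cKO libraries, against 13.6, 16.3 and 13.6 CPM in the WT libraries. The genotypes overlapped, and the ratio of the means was 0.977. The same sum for Ahnak, Afap1l1, Arhgef15 and Phldb2 was 32.8, 34.4 and 38.5 CPM in the Ezh1cKO libraries, against 57.9, 75.2 and 76.9 CPM in the WT libraries, a ratio of 0.503 given as a description of genes chosen for it. WT replicate 1, the lowest WT library for that sum, was level with WT replicate 3 for the endothelial sum.

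A further 42 endothelial genes gave 14 tested and none called, with none at an unadjusted p below 0.05 and none called by limma-voom. DESeq2 gave no adjusted p for 11 of the 14. Their median log2 fold change was -0.05. The smallest p-values were those of Ocln, which encodes the junction protein occludin (-0.41, adjusted p = 0.498), and Ackr1, a chemokine receptor of venules (0.30, adjusted p = 0.505). In no tested gene of this list were all Ezh1cKO libraries below, or all above, the WT libraries. Summed, the list had 447, 503 and 424 CPM in the Ezh1cKO libraries, against 464, 452 and 471 CPM in the WT libraries. The levels were uneven, with Unc5b the highest at 239 CPM in Ezh1cKO and 242 CPM in WT, and Plvap at 23.2 and 19.6 CPM. Cgnl1 had 76.7 and 77.9 CPM, and Adgra2 42.8 and 46.3 CPM. At the other end, 12 of the 42 genes had fewer than 10 counts over all libraries. The sum thus says little about the genes of few counts.

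Of the barrier transport members, Bsg and Slc2a1 were tested. Bsg encodes basigin, an immunoglobulin-family protein that is abundant on brain endothelium and is also expressed by neurons. It had 50.7, 51.6 and 46.0 CPM in the Ezh1cKO libraries, against 58.5, 54.6 and 54.9 CPM in the WT libraries. It was the single vessel, meningeal or choroid member of 10 tested whose genotypes did not overlap (10.0%, against 8.4% of all genes below in this way). The difference did not pass the test (log2 fold change -0.18, SE 0.10, adjusted p = 0.532). Slc2a1, the glucose transporter of the blood-brain barrier, had a log2 fold change of -0.12 (SE 0.23, adjusted p = 0.886). The efflux transporter gene Abcb1a had 7, 5 and 2 counts in the Ezh1cKO libraries, against 1, 2 and 3 in the WT libraries, and the anion transporter gene Slco1a4 had at most 6 in any library.

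The mural members overlapped between genotypes. Pdgfrb, the PDGF receptor of pericytes, had 2.30, 2.32 and 4.93 CPM in the Ezh1cKO libraries, against 2.57, 5.71 and 4.98 CPM in the WT libraries. Replicate 3 of Ezh1cKO was as high as the upper WT libraries (log2 fold change -0.48, SE 0.38, adjusted p = 0.670). Tagln, an actin-binding protein of smooth muscle, had a log2 fold change of -0.16 (SE 0.38, adjusted p = 0.914), and 62.4% of its exon bases are shared with the antisense gene Gm48529. Rgs5, a pericyte regulator of G protein signalling, had 1, 0 and 6 counts in Ezh1cKO, against 0, 0 and 4 in WT, and the smooth muscle actin gene Acta2 had 2, 1 and 7, against 8, 6 and 5.

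The mural members summed to 6.76, 4.63 and 11.2 CPM in the Ezh1cKO libraries, against 9.22, 8.78 and 10.2 CPM in the WT libraries. Ezh1cKO held both the lowest and the highest value, and the ratio of the means was 0.803. Without Ezh1cKO replicate 3 that ratio was 0.607, the lowest over the libraries left out. Of 22 further mural genes 12 were tested, with a median log2 fold change of -0.02 and none called by edgeR or limma-voom, while DESeq2 gave an adjusted p for none of them. One of the 12 (8.33%, against 11.9% of all genes) had an unadjusted p below 0.05. This was Anpep, the aminopeptidase N gene of pericytes (log2 fold change -1.45, adjusted p = 0.295), and the next was the myosin kinase gene Mylk (-0.90, adjusted p = 0.466).

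Of the 5 meningeal and fibroblast members, the genotypes overlapped for all but Ogn. Col1a1, a chain of fibrillar collagen I, had 6.33, 4.48 and 9.85 CPM in the Ezh1cKO libraries, against 10.7, 9.19 and 6.19 CPM in the WT libraries. Ezh1cKO replicate 3 was among the higher libraries and WT replicate 3 among the lower (log2 fold change -0.33, SE 0.28, adjusted p = 0.699). Col1a2, the other chain, gave -0.41 (SE 0.32, adjusted p = 0.669). The proteoglycan genes Dcn and Lum had at most 7 counts in any library. Ogn, another of this family, had 7, 4 and 6 counts in Ezh1cKO, against 4, 1 and 1 in WT. Its level in CPM was higher in every Ezh1cKO library than in every WT library, at counts too low to test. Summed, the 5 members had 11.7, 8.49 and 18.3 CPM in Ezh1cKO, against 20.1, 17.3 and 10.8 CPM in WT, which overlap widely. The ratio of the means was 0.798. It was 0.628 without Ezh1cKO replicate 3, 0.686 without WT replicate 3 and 0.955 without replicate 1 of both genotypes.

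Among further meningeal and fibroblast genes, some were lower in every Ezh1cKO library. Of 37 genes 22 were tested, with none called by edgeR or limma-voom, 4 at an unadjusted p below 0.05 (18.2%, against 11.9% of all genes), and a median log2 fold change of -0.30. DESeq2 gave no adjusted p for 20 of the 22. In 6 of the 22 every Ezh1cKO library lay below every WT library (27.3%, against 8.4% of all genes), and in none did every Ezh1cKO library lie above. These 6, named after their values were seen, were Slc47a1, Foxd1, Slc6a20a, Slc13a3, Foxc1 and Prrx1.

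Slc47a1, a transporter of organic cations, had 1.30, 1.54 and 0.462 CPM in the Ezh1cKO libraries, against 7.10, 4.18 and 2.18 CPM in the WT libraries. WT replicate 1, the lowest WT library for Ahnak, was the highest here (log2 fold change -1.99, SE 0.49, adjusted p = 0.0627). Foxd1, a forkhead transcription factor, had 2.16, 1.08 and 1.23 CPM in Ezh1cKO, against 3.48, 6.41 and 3.52 CPM in WT. Here WT replicate 2 stood above the rest (log2 fold change -1.56, SE 0.42, adjusted p = 0.0881). Foxc1, a forkhead factor of meningeal development, had 4.89, 6.17 and 7.08 CPM in Ezh1cKO, against 7.71, 11 and 10.2 CPM in WT, with little room between the groups (log2 fold change -0.68, SE 0.24, adjusted p = 0.233). Foxc2, another gene of this list, had 2, 3 and 1 counts in Ezh1cKO, against 5, 5 and 12 in WT, too few to test. In CPM its Ezh1cKO libraries were all below its WT libraries, the reverse of Ogn.

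The amino acid transporter gene Slc6a20a gave a log2 fold change of -1.27 (adjusted p = 0.298), the dicarboxylate transporter gene Slc13a3 gave -0.76 (adjusted p = 0.501) and the homeobox gene Prrx1 gave -0.34 (adjusted p = 0.694). The tested collagen genes of the same list overlapped between genotypes, with Col6a2 at -0.79, Col5a1 at -0.02 and Col12a1 at 0.31. Summed over the 37 genes, the level was 279, 224 and 287 CPM in the Ezh1cKO libraries, against 293, 307 and 275 CPM in the WT libraries, and the genotypes overlapped. Col5a1 took the most of this sum, at 102 CPM in Ezh1cKO and 103 CPM in WT. Foxc1, the most abundant of the 6 genes above, had 6.05 and 9.64 CPM, so the sum says little about those 6.

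**Figure D3:**
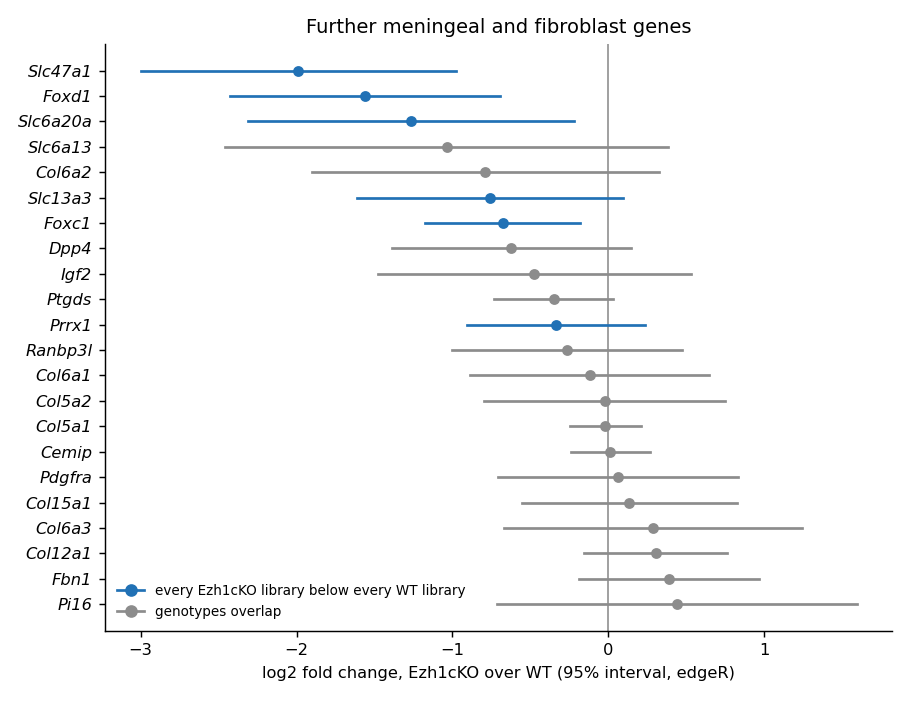
Log2 fold change, Ezh1cKO over WT, with 95% intervals from edgeR (horizontal axis) for the 22 tested genes of the wider meningeal and fibroblast list, ordered by value. The 6 genes in blue had every Ezh1cKO library below every WT library, and the genes in grey overlapped.

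Of the choroid plexus members, the one tested was not called. Kcnj13, an inward rectifier potassium channel of the choroid epithelium, had 4.61, 5.87 and 8.0 CPM in the Ezh1cKO libraries, against 3.33, 4.32 and 5.22 CPM in the WT libraries. The genotypes overlapped (log2 fold change 0.51, SE 0.30, adjusted p = 0.539). Of its exon bases, 49.1% are shared with Gigyf2 on the opposite strand, at 151 CPM in Ezh1cKO and 177 CPM in WT, so its counts cannot be assigned to it alone. Ttr, the transthyretin gene that is the defining transcript of choroid plexus, had 0, 1 and 4 counts in Ezh1cKO, against 0, 0 and 1 in WT. Of 17 further choroid genes 3 were tested, with no call by edgeR or limma-voom and no unadjusted p below 0.05, and DESeq2 gave an adjusted p for none of the 3. Smallest in p were the bicarbonate transporter gene Slc4a5 (-0.31, adjusted p = 0.809) and the chloride channel family gene Clic6 (0.31, adjusted p = 0.880).

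Over the whole group, none of the 15 tested members that were not chosen for their change passed edgeR's test or that of limma-voom, and DESeq2 gave no adjusted p for 13 of them. The unadjusted p was below 0.05 for 1 of them, Col4a2 (6.67%, against 11.9% of all genes). Of these 15, 11 had negative and 4 positive log2 fold changes, with a median of -0.16, against -0.01 over all genes. Over all genes 6715 were negative and 6400 positive. Among the 10 tested vessel, meningeal and choroid members the median was -0.25, with 8 negative values and none at an unadjusted p below 0.05. Of all genes, limma-voom called 0.587% and DESeq2 0.877%, and DESeq2 gave no adjusted p for 9 of these 10 members.

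**Figure D4:**
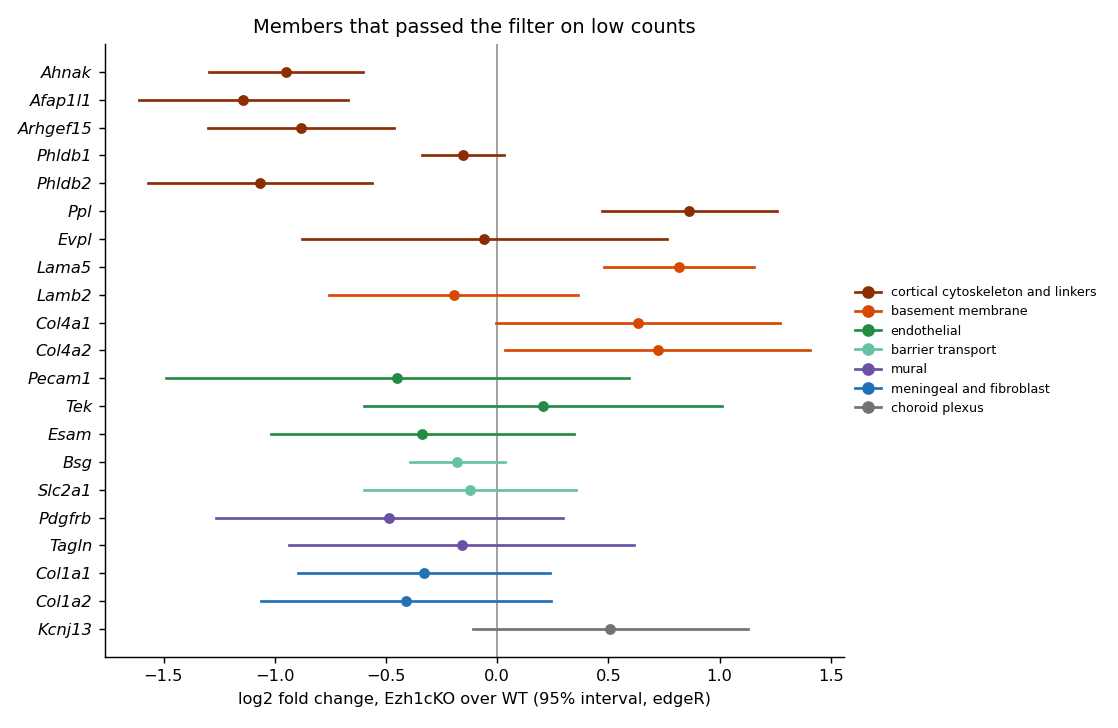
Log2 fold change, Ezh1cKO over WT, with 95% intervals from edgeR (horizontal axis) for the 21 members that passed the filter, coloured by group. Ahnak, Afap1l1, Arhgef15 and Phldb2 lie near -1 and Lama5 and Ppl near 0.8, and of the other 15 genes all intervals but that of Col4a2 include 0.

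The 28 vessel, meningeal and choroid members summed to 94.6, 94.2 and 109 CPM in the Ezh1cKO libraries, against 114, 110 and 104 CPM in the WT libraries. The genotypes overlapped, with a ratio of means of 0.907, and 0.933 when Bsg, the most abundant of them, was left out. Ezh1cKO replicate 3 had the highest sums of all libraries for the mural members, the choroid members and the oligodendrocyte genes. In the Ezh1cKO means, Kcnj13 took 6.16 of the 6.42 CPM of the choroid sum, and Tagln 3.50 of the 7.54 CPM of the mural sum. Both share many exon bases with a gene on the opposite strand, as given above. Over the 26 mural genes of both lists WT replicate 3 was highest, at 136 CPM, against 128 CPM in Ezh1cKO replicate 3.

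**Figure D5:**
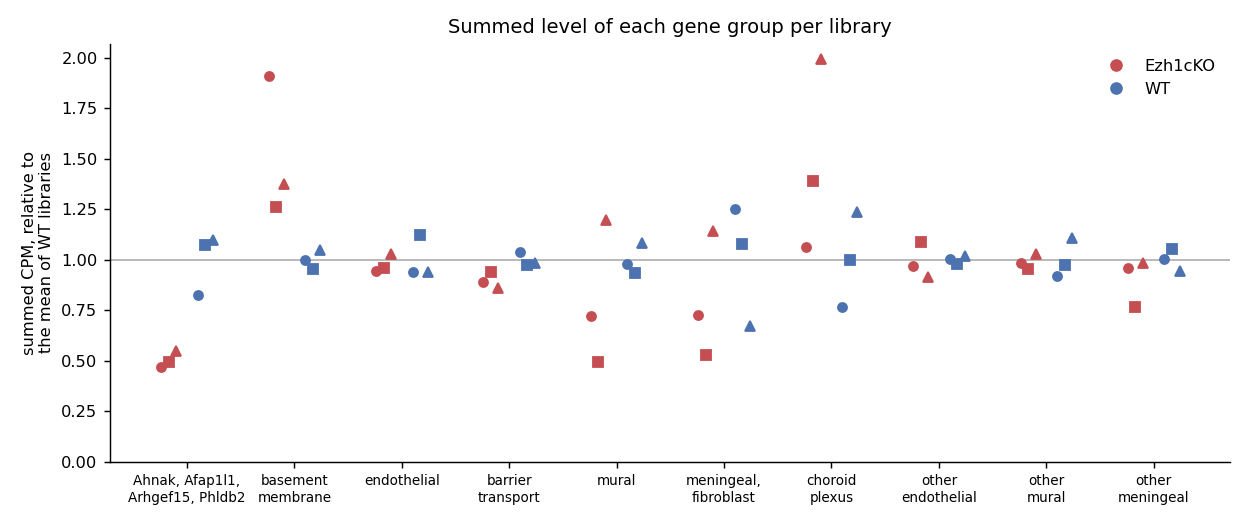
Summed CPM of each gene group per library, divided by the mean of the 3 WT libraries (vertical axis, from 0), with red points for Ezh1cKO left of blue points for WT (circle, square and triangle for replicates 1, 2 and 3). The 4 cortex genes sit apart between genotypes, as do basement membrane with Lama5 and barrier transport with Bsg, and the endothelial, mural, meningeal and choroid sums overlap. The choroid sum is mostly Kcnj13.

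Markers of other cell types were present as well. The summed level of 12 oligodendrocyte genes was 426, 330 and 734 CPM in the Ezh1cKO libraries, against 470, 406 and 271 CPM in the WT libraries. All 12 had positive log2 fold changes, against 6400 of all 13115 genes. There was no call by edgeR or limma-voom and no unadjusted p below 0.05, and DESeq2 gave no adjusted p for 8 of the 12. The lowest p-values were found for Cldn11 (0.68, adjusted p = 0.557) and Cnp (0.31, adjusted p = 0.645). Ezh1cKO replicate 3 was the highest and WT replicate 3 the lowest. Their part in the difference of Ahnak, Afap1l1, Arhgef15 and Phldb2 was not tested.

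Astrocyte and Bergmann glia genes summed to 154 to 168 CPM in Ezh1cKO and 135 to 170 CPM in WT, with the smallest p-values for Slc1a2 (0.37, adjusted p = 0.274) and S100b (-0.53, adjusted p = 0.446). Microglial genes summed to 25.3 to 32.9 CPM in Ezh1cKO and 18.6 to 45.5 CPM in WT, with P2ry12 at a log2 fold change of 0.32 (adjusted p = 0.685). The genotypes overlapped for both sums. All 11 astrocyte and Bergmann glia genes were tested, and 1 had an unadjusted p below 0.05 (9.09%, against 11.9% of all genes). For 2 of them every Ezh1cKO library lay above every WT library (18.2%, against 7.91% of all genes), and for none below. Only 3 of the 12 microglial genes were tested. No gene of either list was called. The granule cell genes summed to 5966, 6506 and 5499 CPM in the Ezh1cKO libraries, against 5887, 5622 and 5720 CPM in the WT libraries. Of the 14 only Neurod1 was called, as higher (7.14%, against 0.328% of all genes). Neurod1, which is part of that sum, had 307 CPM in Ezh1cKO and 142 CPM in WT (log2 fold change 1.11).

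Leaving out single libraries changed which members passed the threshold but not the direction of the 6 chosen genes. Without Ezh1cKO replicate 1, without WT replicate 2 and without WT replicate 3, the number called lower was 0 in each case, when 4, 5 and 3 of all genes were called lower in that order, against 34 with all libraries. The log2 fold change of Ahnak then lay between -0.82 and -0.90, and over all libraries left out it lay between -1.05 and -0.82. Without replicate 1 of both genotypes, the pair with high Xist, 2 members were called lower and 0 higher, and the log2 fold change ranges over the libraries left out were -1.39 to -0.89 for Afap1l1, -1.07 to -0.74 for Arhgef15, -1.31 to -0.92 for Phldb2, 0.73 to 0.98 for Lama5 and 0.63 to 1.04 for Ppl.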

How the data were processed

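The authors deposited 1 table of whole-number counts per gene for 6 nuclear RNA-seq libraries, not normalized, made with Subread on mm10 per the submitters' processing notes. The version, annotation and strand setting were not given in the sources used here. Genes are named by NCBI identifiers, and 24570 of 24594 matched RefSeq of GRCm38.p6. One entry that matched no gene took 24.5% to 26.7% of each library and stayed in the library sizes. The test was that of edgeR 4.0.16 in R 4.3.3 (filterByExpr, TMM factors of 0.982 to 1.02, glmQLFit with robust fits, glmQLFTest, two-sided, Benjamini-Hochberg over all 13115 genes, called below 0.05), tested on simulated data first. CPM are the deposited counts scaled to 1e+06 by total and TMM factor. Alternatives were DESeq2 1.42.0, voom of limma 3.58.1, other scalings and filters, a replicate block and libraries left out. Sums over gene groups have no test. Exon lengths and overlaps came from GENCODE vM21, promoter windows from RefSeq (23 members had one). Exon overlaps were looked up for the members only. The members and lists were chosen with earlier results of these data known. All 41 members are named, and of each further list up to 4 called genes (smallest p first) or, failing any, the 2 genes of smallest p. Other genes were chosen after their values were seen. A gene that this rule picks is not reported here.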

Additional observations from a re-analysis of the deposited data

How the results depend on the processing

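With DESeq2, 0 members were called lower and 0 higher, because it set 19 of the 21 tested members aside for low level with no adjusted p, while all 21 kept their direction. Over all genes it called 58 lower, scaling by library size alone called 69 higher, and with no filter on low counts 131 were called lower and 146 higher, when more genes entered the test. With limma-voom, library size alone, without the 4 most abundant entries and with a mean of at least 5 CPM, the members called were 4 lower and 2 higher, as in the first analysis. Over the libraries left out, members called lower numbered 0 to 4 and higher 0 to 3, and all genes called lower numbered 3 to 133 and higher 10 to 116, the largest without WT replicate 1. The log2 fold change changed sign for Evpl (-0.24 to 0.40), Slc2a1 (-0.22 to 0.047) and Tagln (-0.44 to 0.13), none of them called. Same-numbered libraries deviated together with r above 0.1 in 1 of 3 pairs (0.157, 0.00679 and -0.0375), the highest for replicate 1, the pair with high Xist. Ezh1cKO replicate 2 and WT replicate 3 gave 0.108. With so few libraries these values cannot settle whether replicate numbers pair the libraries. With the replicate block 3 members were called lower, without Phldb2 (adjusted p = 0.0540), 2 were called higher, and Evpl stood at 0.0054. With each gene scaled to its own mean before summing, which gives genes of few counts the same weight, the ratio of Ezh1cKO to WT was 1.32 for endothelial, 1.18 for barrier transport, 2.66 for choroid plexus and 1.21 for all vessel, meningeal and choroid members, against 0.977, 0.895, 1.48 and 0.907. Counting error weighs most on the 19 members below the filter, which had at most 15 counts in any library.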
